A study of Mus musculus with 6 samples.

Results

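The NMDA receptor subunits were followed in the ribosome-associated RNA of mPFC D2 neurons, with and without a viral knockout of GSK3β. The members were chosen by gene name, as every row of the deposited transcript table named Grin1, Grin2a, Grin2b, Grin2c, Grin2d or Grin3a, which gave 34 of 115220 listed transcripts and 6 of 47729 listed genes. The series holds 3 Ctrl and 3 Gsk3sKO libraries from the mPFC of adult male C57BL/6 mice, taken 3 weeks after viral injection. All mice carried D2Cre, a bacterial artificial chromosome transgene that places Cre under Drd2 control, together with LSL-Flag-Cas9 and RiboTag, so Cas9 and the hemagglutinin-tagged Rpl22 were made in D2 cells of both groups. Ctrl mice received AAV GFP, which has no sgRNA, and Gsk3sKO mice received AAV Gsk3sgRNA/GFP. Ctrl had no other sgRNA in its place, so the loss of GSK3β and the cutting of DNA by Cas9 cannot be told apart. The sources used here do not say whether a library came from 1 mouse or from pooled mice, so the p-values cover the spread between libraries alone, which may be technical.

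NMDA receptors are glutamate-gated cation channels that pass calcium and need glycine or D-serine as a co-agonist. GluN1, encoded by Grin1, is the obligatory subunit that binds the co-agonist, and it assembles with GluN2 subunits, which bind glutamate, or with GluN3 subunits, which bind glycine. In the adult forebrain GluN2A and GluN2B are the main GluN2 subunits, and GluN2A gives faster channel closure than GluN2B. GluN2C is best known from the cerebellum and GluN2D from interneurons, while GluN3A lowers calcium entry and is most abundant in early postnatal life. In GRCm38, all on the minus strand, Grin1 lies at chr2:25291181-25319187, Grin2a at chr16:9567898-9995560, Grin2b at chr6:135713233-136173511, Grin2c at chr11:115249169-115267243, Grin2d at chr7:45831883-45878378 and Grin3a at chr4:49661611-49845744.

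The table gives FPKM, a level per length of transcript and per depth of library, and holds no read counts. Between 40787 and 55841 transcripts were above 0 in each library. The spacing of low values put 1 FPKM at roughly 23.5 to 45.4 fragments for each kilobase of a transcript, a rough figure, since only 21.8% to 37.1% of the low values lay within 0.03 fragments of a whole number. The targeted gene, Gsk3b, had a gene total of 35.6, 53.8 and 56.4 FPKM in Ctrl and 36.9, 37.0 and 33.6 FPKM in Gsk3sKO, with Ctrl replicate 1 inside the Gsk3sKO range. Its transcript ENSMUST00000023507 was lower in every Gsk3sKO library (21.2 to 24.8 FPKM) than in every Ctrl library (33.5 to 36.2 FPKM). Of all transcripts with a mean of at least 1 FPKM, 6.96% were lower in Gsk3sKO without overlap. These are RNA values and do not measure the protein. By staining, in mice without RiboTag, the paper found no GSK3β signal in most mPFC neurons that held both Cas9 and the sgRNA virus. Drd2, the marker of the tagged cells, was at 1.58, 6.02 and 14.1 FPKM in Ctrl, with 8.32, 5.96 and 7.28 FPKM in Gsk3sKO, so that Ctrl replicate 1 was the lowest library. Without Ctrl replicate 1 the counts of called subunits given below were the same, 0 gene totals and 0 transcripts.

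The alternative parts of the Grin1 and Grin3a transcripts are shown first, because the transcript values below are grouped by them. They were read from the GENCODE M21 transcripts on GRCm38, all on the minus strand. Capitals mark the alternative part and lower case marks the neighbouring bases of the same transcript. The N1 cassette of Grin1, at chr2:25311343-25311405, is exon 4 of the 21 exons of ENSMUST00000114318 and adds 63 coding bases to the part that encodes the extracellular amino-terminal domain. The C1 cassette, at chr2:25294438-25294548, is exon 20 of the same transcript and adds 111 coding bases to the intracellular tail. The C2 part, at chr2:25292371-25292484, is the coding start of the last exon of ENSMUST00000114310, with 114 coding bases followed by the stop codon. Transcripts that skip it use a later splice acceptor and end in another tail, called C2′. The Grin3a insert, at chr4:49665566-49665625, lies at the start of the last exon of ENSMUST00000093859 and adds 60 coding bases to the intracellular tail. ENSMUST00000076674 is the same transcript without it.
N1 cassette: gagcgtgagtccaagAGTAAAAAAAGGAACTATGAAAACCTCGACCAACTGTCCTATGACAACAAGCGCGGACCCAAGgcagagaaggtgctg
C1 cassette: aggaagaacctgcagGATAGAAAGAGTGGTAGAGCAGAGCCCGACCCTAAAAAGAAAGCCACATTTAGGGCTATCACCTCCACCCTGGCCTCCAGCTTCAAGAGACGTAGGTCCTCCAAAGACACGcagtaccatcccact
C2 part: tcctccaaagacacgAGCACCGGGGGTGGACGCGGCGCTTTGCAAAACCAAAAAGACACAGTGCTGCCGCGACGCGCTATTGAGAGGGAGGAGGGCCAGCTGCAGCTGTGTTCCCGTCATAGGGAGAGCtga
Grin3a insert: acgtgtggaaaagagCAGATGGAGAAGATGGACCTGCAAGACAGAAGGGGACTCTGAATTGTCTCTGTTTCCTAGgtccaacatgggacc

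Grin1 was the most abundant subunit, Grin2a and Grin2b followed at about the same level, Grin3a was lower, and Grin2c and Grin2d were near the filter on low values. Over the 6 libraries the mean gene total, the summed FPKM of all transcripts of a gene, was 122 for Grin1, 68.9 for Grin2b, 67.9 for Grin2a, 8.90 for Grin3a, 1.71 for Grin2d and 1.43 for Grin2c. Grin1 ranked 431 of the 12874 gene totals with a mean of at least 1 FPKM, and Grin2c ranked 12002. Grin1 was above Grin2b in 6 of 6 libraries, by 1.45 to 2.69 times, Grin2a was above Grin3a in 6 of 6, and Grin3a was above Grin2d in 6 of 6. The neighbours Grin2b and Grin2a did not differ beyond their spread, with Grin2b above in 4 of 6 libraries, and neither did Grin2d and Grin2c, with Grin2d above in 2 of 6. In bulk RNA, fewer cells of a type and less RNA per cell cannot be told apart. All these values are per transcript length, so genes can be set side by side, but they rest on an estimated split of reads over transcripts. Most Grin2a FPKM was on a transcript of 4395 bases and most Grin2b FPKM on one of 24060 bases. Their near equal levels depend on that split and on the annotated lengths.

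**Figure D1:**
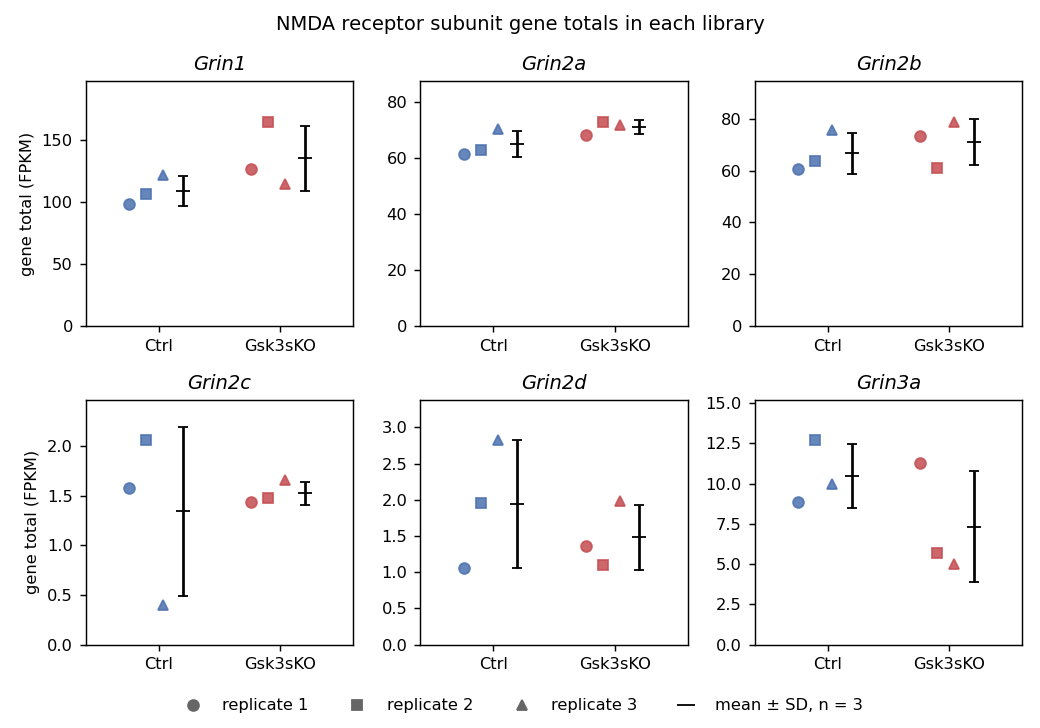
Gene totals in FPKM (vertical axis, from 0) of the 6 NMDA receptor subunits in the Ctrl (blue) and Gsk3sKO (red) libraries, 1 point per library, with the mean and SD of 3 libraries in black. The ranges of the groups overlap in all 6 panels, and the 2 lowest Grin3a values are those of Gsk3sKO replicates 2 and 3, at 5.66 and 5.003 FPKM.

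The comparison of Gsk3sKO with Ctrl asked which ribosome-associated RNAs change when D2 neurons of the mPFC lose GSK3β. No subunit gene total passed the test. In limma on log2(FPKM + 1), a linear model that shares the spread of all features, 0 of the 6 gene totals had an unadjusted p under 0.05, where 6.56% of all gene totals tested did, and an ordinary linear model without moderated variances also called 0 of 6. The adjusted p-values in limma lay between 0.792 and 0.942, and 0.0466% of all gene totals had one under 0.05. The log2 fold change was above 0 for Grin1, Grin2a, Grin2b and Grin2c and below 0 for Grin2d and Grin3a, against a median of -0.06 over all gene totals. The groups overlapped for all 6 genes, while 3.71% of all gene totals were higher and 8.3% lower in Gsk3sKO without overlap.

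Grin1 read 98.1, 106.3 and 122 FPKM in Ctrl, against 127, 165 and 114.1 FPKM in Gsk3sKO. Gsk3sKO replicate 2 was the highest library, and Gsk3sKO replicate 3 lay below Ctrl replicate 3, so the groups overlapped. The means were 109 ± 12.2 FPKM in Ctrl and 135 ± 26.3 FPKM in Gsk3sKO (SD, n = 3 each; 2-sided exact permutation test, p = 0.2). In limma this was a log2 fold change of 0.30, with a 95% interval from -0.09 to 0.68 (standard error 0.17, adjusted p = 0.792), so a rise of up to 1.61-fold lay within the interval. Without Gsk3sKO replicate 3 the log2 fold change was 0.41 and the unadjusted limma p was 0.0463, and without Gsk3sKO replicate 2 the log2 fold change was 0.15.

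The 8 protein-coding Grin1 transcripts differ in the N1 cassette, the C1 cassette and the C2 or C2′ end, and they fell into a high and a low class by the N1 cassette. The 4 transcripts with the N1 cassette had mean levels of 26.1 to 32.4 FPKM, and the 4 without it had mean levels of 1.37 to 2.72 FPKM. The share of protein-coding Grin1 FPKM that came from transcripts with the N1 cassette was 88.8%, 92.8% and 93.8% in Ctrl and 96.3%, 96.6% and 93.7% in Gsk3sKO. It was high in every library, and the groups overlapped because Gsk3sKO replicate 3 lay just below Ctrl replicate 3. In the annotation the transcripts with the N1 cassette also share a first exon of 467 bases, while those without it begin with exons of 492 or 559 bases. The table gives no reads over single exons, so the use of the cassette and the use of the first exon cannot be told apart in these values.

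The C1 cassette and the C2 end did not separate the transcripts in this way. Transcripts with the C1 cassette made up 51.2%, 51.1% and 55.0% of protein-coding Grin1 FPKM in Ctrl and 60.9%, 51.2% and 46.0% in Gsk3sKO. Transcripts that end in C2 made up 45.9%, 47.3% and 47.0% in Ctrl and 42.8%, 49.4% and 52.9% in Gsk3sKO. Both shares lay near an even split, and Gsk3sKO replicates 1 and 3 fell on opposite sides of the Ctrl libraries. Within a library the highest of the 4 transcripts with the N1 cassette was 1.17 to 2.09 times the lowest, and the largest ratio was that of Gsk3sKO replicate 1.

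**Figure D2:**
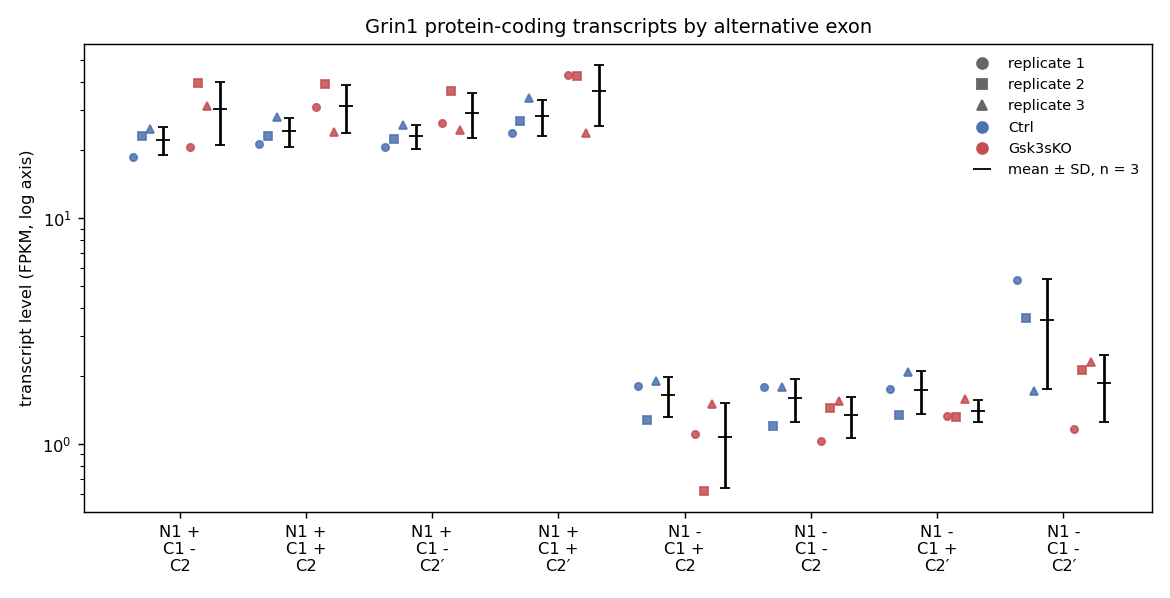
FPKM on a log axis of the 8 protein-coding Grin1 transcripts, labelled by the N1 cassette, the C1 cassette and the C2 or C2′ end, with 1 point per library (Ctrl blue, Gsk3sKO red) and the mean and SD of 3 libraries in black. The 4 transcripts with the N1 cassette lie between 18.7 and 43.0 FPKM and the 4 without it between 0.622 and 5.34 FPKM.

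The group means of the 2 class sums differed in opposite directions, in values that were grouped after they were seen, so no p-value is given for them. Transcripts with the N1 cassette summed to 84.5, 95.8 and 113 FPKM in Ctrl and 121, 158 and 104 FPKM in Gsk3sKO. The protein-coding transcripts without it summed to 10.7, 7.44 and 7.51 FPKM in Ctrl and 4.64, 5.51 and 6.95 FPKM in Gsk3sKO. The second sum was lower in every Gsk3sKO library than in any Ctrl library, and the first overlapped between the groups. Taken singly, each of the protein-coding transcripts without the cassette overlapped between the groups. Of all single transcripts tested, 6.96% were lower without overlap, a share that is no measure for a sum grouped after the values were seen. Of the single Grin1 transcripts, the largest log2 fold change above 0 was that of ENSMUST00000114308 (0.40, standard error 0.27, limma adjusted p = 0.882). The largest below 0 was that of ENSMUST00000114312 (-0.61, standard error 0.43, limma adjusted p = 0.89), which ran from 1.72 to 5.34 FPKM in Ctrl and from 1.17 to 2.32 FPKM in Gsk3sKO, with overlap. Without Gsk3sKO replicate 1, ENSMUST00000114308 alone had an unadjusted limma p under 0.05, of 0.0237. Without Gsk3sKO replicate 3 it was 0.0437 for ENSMUST00000114310 and 0.0246 for ENSMUST00000114318. Grin1os, an antisense gene inside Grin1, was at most 0.352 FPKM in any library.

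Grin2a, which encodes the GluN2A subunit of mature synapses, had the smallest standard error of the 6 gene totals. Its gene total was 61.4, 62.9 and 70.1 FPKM in Ctrl and 68.2, 72.8 and 71.8 FPKM in Gsk3sKO. Gsk3sKO replicate 1 lay below Ctrl replicate 3, and the other two Gsk3sKO libraries lay above all Ctrl libraries. The means were 64.8 ± 4.61 and 70.9 ± 2.38 FPKM (SD, n = 3 each; 2-sided exact permutation test, p = 0.2). This gave a log2 fold change of 0.13 with a standard error of 0.12 (limma adjusted p = 0.874), and a 95% interval from 0.901-fold to 1.33-fold.

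Grin2a was carried by ENSMUST00000032331 and ENSMUST00000199708, which have the same coding length of 4392 bases and differ in the length outside it. Their total lengths are 4395 and 14634 bases. The longer one held 28.5%, 29.7% and 28.7% of the Grin2a FPKM in Ctrl and 31.0%, 27.5% and 31.4% in Gsk3sKO. This split varied little between libraries and the groups overlapped. The tested transcript ENSMUST00000197242 is annotated as a retained intron of 3906 bases and had 4.86, 3.80 and 3.83 FPKM in Ctrl, with 2.999, 3.49 and 2.87 FPKM in Gsk3sKO. The groups did not overlap, with Gsk3sKO lower (p = 0.1 in the 2-sided exact permutation test, which cannot give less with 3 libraries a group). The difference of -0.32 on the log2 scale (standard error 0.27, limma adjusted p = 0.89) was opposite in sign to those of the protein-coding transcripts, 0.15 and 0.17. Of the alternatives run, the linear model without moderated variances alone gave it an unadjusted p under 0.05, of 0.0478.

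Grin2b, which encodes the GluN2B subunit, the partner of CaMKII at the synapse, stood at 60.7, 63.7 and 75.6 FPKM in Ctrl and 73.2, 61.2 and 78.8 FPKM in Gsk3sKO. The groups overlapped widely, with Gsk3sKO replicate 2 next to Ctrl replicate 1. The means were 66.7 ± 7.88 and 71.1 ± 9.03 FPKM (SD, n = 3 each; 2-sided exact permutation test, p = 0.6). The difference was 0.09 on the log2 scale (standard error 0.15, limma adjusted p = 0.935), with a 95% interval from 0.837-fold to 1.35-fold.

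Most Grin2b FPKM came from ENSMUST00000053880, a transcript of 24060 bases of which 4446 are coding. It held 82.8%, 87.1% and 90.7% of the gene total in Ctrl and 93.0%, 93.1% and 81.3% in Gsk3sKO. The short transcript ENSMUST00000125905, of 630 bases with an incomplete coding end, had 5.34, 3.95 and 2.76 FPKM in Ctrl, with 0.833, 1.52 and 2.56 FPKM in Gsk3sKO. All Gsk3sKO libraries were below all Ctrl libraries, with Gsk3sKO replicate 3 close to Ctrl replicate 3. Its log2 fold change was -0.95 (standard error 0.40), with the smallest unadjusted p of the subunit transcripts in limma, 0.0547 (adjusted p = 0.842). The unadjusted limma p became 0.0436 when transcripts of any level entered the fit, and 0.0373 when Gsk3sKO replicate 3 was left out. The other short transcript, ENSMUST00000143943, overlapped between the groups (log2 fold change -0.12, standard error 0.46).

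The balance of GluN2A and GluN2B was compared by the ratio of their gene totals, which does not depend on the depth of a library. The ratio of Grin2a to Grin2b FPKM was 1.01, 0.987 and 0.927 in Ctrl and 0.932, 1.19 and 0.911 in Gsk3sKO. Gsk3sKO replicate 2 was the highest and Gsk3sKO replicate 3 the lowest. The difference of the mean log2 ratios of FPKM + 1 was 0.04 (2-sided exact permutation test, p = 0.9), and without Gsk3sKO replicate 2 it changed sign to -0.080 (2-sided exact permutation test, p = 0.3). Summed over the 4 Grin2 genes, the FPKM was 1.27, 1.23 and 1.22 times that of Grin1 in Ctrl and 1.14, 0.83 and 1.35 times in Gsk3sKO. The Ctrl libraries were close to each other and the Gsk3sKO libraries lay on both sides of them.

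Grin2c and Grin2d encode the subunits of low magnesium sensitivity and together made up less than either of the other Grin2 genes. Grin2c had 1.58, 2.06 and 0.399 FPKM in Ctrl, with 1.44, 1.48 and 1.66 FPKM in Gsk3sKO, all from ENSMUST00000106554, while ENSMUST00000003351 was listed at 0 in all 6 libraries. Ctrl replicate 3 was the lowest by far, at roughly 46 fragments by the depth estimate, and the groups overlapped. Its log2 fold change of 0.18 had a standard error of 0.36 (limma adjusted p = 0.942), and without Ctrl replicate 3 it changed sign to -0.15.

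Grin2d had 1.06, 1.95 and 2.82 FPKM in Ctrl, with 1.36, 1.099 and 1.98 FPKM in Gsk3sKO, from its only listed transcript, ENSMUST00000002848. The Gsk3sKO libraries lay within the Ctrl range. The fitted difference was -0.22 on the log2 scale (standard error 0.33, limma adjusted p = 0.93). On this scale a change of genes with such low FPKM is understated. The 95% intervals were wide, from 0.637-fold to 2.02-fold for Grin2c and from 0.506-fold to 1.46-fold for Grin2d.

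Grin3a, the glycine-binding GluN3A subunit, had the largest log2 fold change of the 6 gene totals in size. It had 8.83, 12.7 and 9.96 FPKM in Ctrl, with 11.3, 5.66 and 5.003 FPKM in Gsk3sKO. Gsk3sKO replicate 1 lay within the Ctrl range and the other two Gsk3sKO libraries lay below it. The means were 10.5 ± 1.98 and 7.32 ± 3.46 FPKM (SD, n = 3 each; 2-sided exact permutation test, p = 0.3). In limma the difference was -0.53 on the log2 scale, with a 95% interval from -1.21 to 0.15 (standard error 0.30, adjusted p = 0.792). Leaving out Gsk3sKO replicate 1 changed it to -0.85, where the unadjusted limma p was 0.00906 and the adjusted p in limma was 0.366.

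The long Grin3a transcript ENSMUST00000093859, which carries the 60-base insert, had 7.59, 4.58 and 6.61 FPKM in Ctrl, with 1.12, 3.47 and 4.26 FPKM in Gsk3sKO. All 3 Gsk3sKO libraries were below the Ctrl range, with Gsk3sKO replicate 3 closest (p = 0.1 in the 2-sided exact permutation test, again the smallest possible). In limma the difference was -0.96 on the log2 scale (standard error 0.43, adjusted p = 0.842). The unadjusted limma p was 0.0646, and 0.0465 without Gsk3sKO replicate 3. The short transcript ENSMUST00000076674 had 1.04, 6.70 and 2.88 FPKM in Ctrl, with 8.95, 2.04 and 0 FPKM in Gsk3sKO, and the groups overlapped widely. The share of Grin3a FPKM from the long transcript was 86.0%, 36.1% and 66.4% in Ctrl and 9.93%, 61.2% and 85.1% in Gsk3sKO. It varied more between libraries of 1 group than between the groups. The 2 transcripts are 7431 and 7491 bases long and differ by the 60 bases printed above alone.

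**Figure D3:**
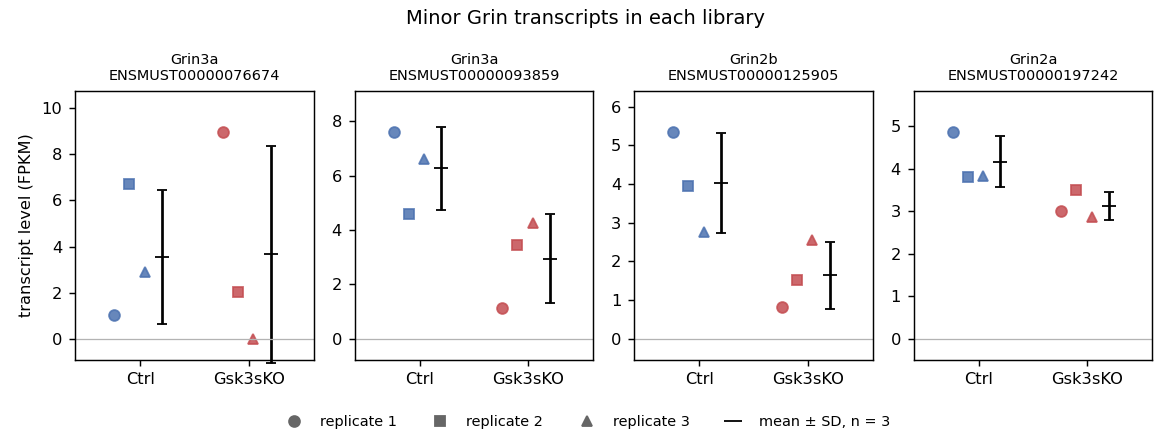
FPKM (vertical axis, 0 at the grey line) of the short and the long Grin3a transcript, the short Grin2b transcript ENSMUST00000125905 and the Grin2a retained intron ENSMUST00000197242 in each library, with the mean and SD of 3 libraries in black. All Gsk3sKO libraries (red) lie below all Ctrl libraries (blue) in the last 3 panels, while the short Grin3a transcript runs from 0 to 8.95 FPKM in Gsk3sKO.

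Of the 34 listed subunit transcripts, 19 had a mean of at least 1 FPKM and were tested, 15 were not, of which 1 was at 0 in all libraries. In limma 0 of the 19 had an unadjusted p under 0.05, where 5.56% of all transcripts tested did, and the linear model without moderated variances called 1, the Grin2a retained intron. The unadjusted p-values in limma ran from 0.0547 to 0.81 and the adjusted from 0.842 to 0.98. The log2 fold change was above 0 for 8 transcripts and below 0 for 11. The 8 above 0 were the 4 Grin1 transcripts with the N1 cassette, the main transcripts of Grin2a and Grin2b and that of Grin2c. The groups did not overlap for 3 of the 19, all lower in Gsk3sKO, where 11.2% of all transcripts tested did not overlap and 6.96% were lower without overlap. These 3, of Grin2a, Grin2b and Grin3a, are the ones described above. The untested transcripts reached at most 3.94 FPKM, in Grin2b ENSMUST00000111905 of Gsk3sKO replicate 3, and in the other five libraries that transcript lay between 0.195 and 0.358 FPKM.

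**Figure D4:**
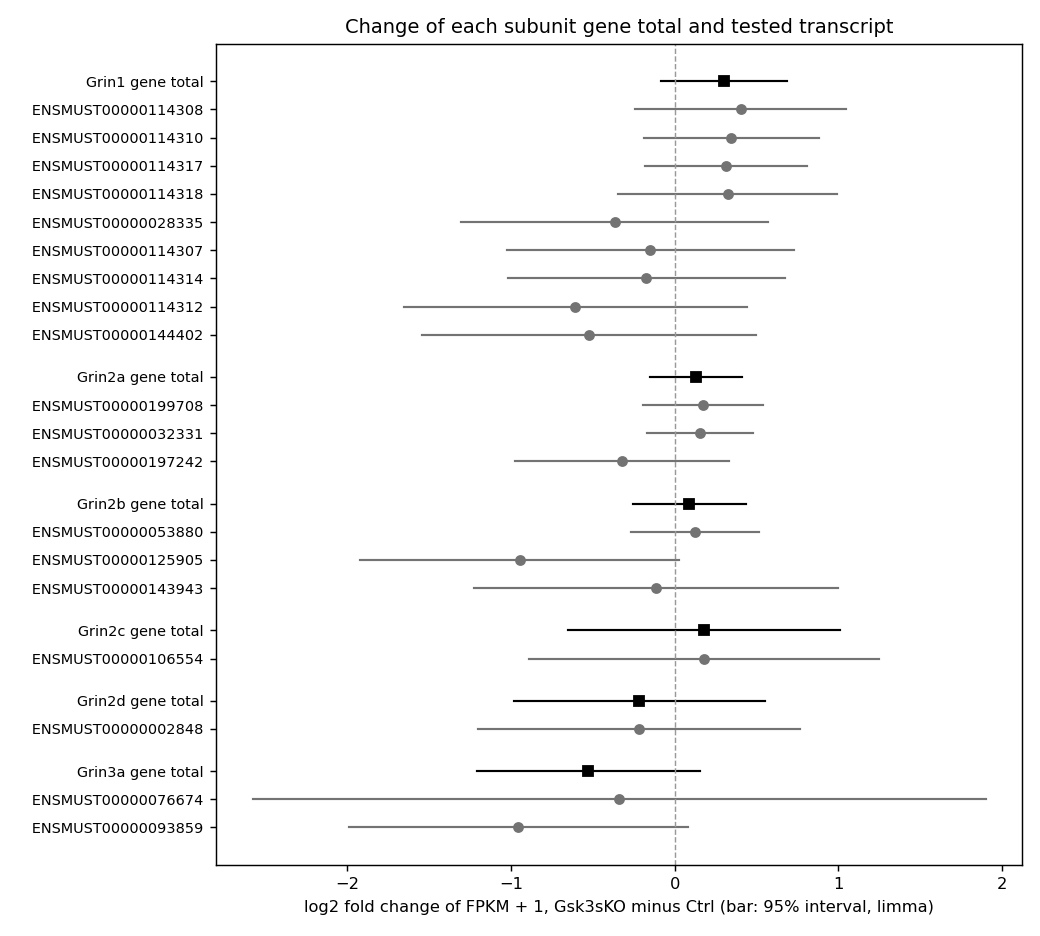
Log2 fold change of FPKM + 1, Gsk3sKO minus Ctrl (horizontal axis), of the 6 gene totals (black squares) and the 19 tested transcripts (grey circles), with bars for the 95% interval from limma. All 25 intervals cross 0, and the Grin2a gene total has the narrowest one.

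Partners of the receptor were followed in a list of 58 genes, of which 55 gene totals were tested, while Dao, Slc6a5 and Grin3b were below the filter. Grin3b, the other GluN3 gene, was listed at 0 in all 6 libraries. In limma 1 partner was higher and 1 was lower at an unadjusted p under 0.05, 3.64% of those tested against 6.56% of all gene totals, of which 1.36% were higher and 5.2% lower. The median log2 fold change of the partners was -0.01, against -0.06 over all gene totals, and the smallest adjusted p in limma was 0.688.

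Among the 14 kinases and phosphatases that act on the receptor, Ppp3cb, a catalytic subunit of the calcium-dependent phosphatase calcineurin, was called. Its gene total was 50.9, 42.9 and 91.4 FPKM in Ctrl and 98.8, 99.8 and 102 FPKM in Gsk3sKO. The Gsk3sKO libraries were all higher, with Ctrl replicate 3 close to them. The difference on the log2 scale was 0.76 (standard error 0.25, limma adjusted p = 0.688). Its unadjusted limma p was 0.0158, and it rose to 0.0562 without Ctrl replicate 1 and to 0.0588 without Ctrl replicate 2. Without Ctrl replicate 3 the difference was 1.08 on the log2 scale, where the unadjusted limma p was 0.00012 and the adjusted p in limma was 0.0683. Camk2a, the most abundant of this group and the kinase that binds GluN2B, had means of 542 ± 44.8 and 592 ± 95.8 FPKM (SD, n = 3 each), which differed by 0.12 on the log2 scale (standard error 0.17).

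Among the 16 tested genes of trafficking and downstream signalling, Lin7b, a PDZ protein of the complex that carries NMDA receptors along dendrites, was called. It had 36.7, 30.0 and 39.1 FPKM in Ctrl, with 30.1, 27.3 and 21.9 FPKM in Gsk3sKO. The groups overlapped at Ctrl replicate 2 and Gsk3sKO replicate 1. The difference was -0.41 on the log2 scale (standard error 0.17, limma adjusted p = 0.752). Its unadjusted limma p was 0.0465. That p was 0.101 or 0.141 when Ctrl replicate 1 or 3 was left out, 0.073 or 0.134 when Gsk3sKO replicate 2 or 3 was left out, and 0.067 with each library rescaled to the median ratio. The most abundant gene of this group, Calm2, encodes calmodulin and differed by 0.06 on the log2 scale (standard error 0.25).

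The 16 scaffolds and anchors, which hold the receptor in the postsynaptic density, had 0 calls in limma and log2 fold changes between -0.45 and 0.25. Their most abundant gene was Nefl, a neurofilament subunit, at 203 ± 15.8 FPKM in Ctrl and 209 ± 3.89 FPKM in Gsk3sKO (SD, n = 3 each). The 9 tested genes of co-agonist and glutamate supply and removal also had 0 calls, with log2 fold changes between -0.40 and 0.38. The most abundant of them was Slc1a2, the main glutamate transporter of astrocytes, which differed by 0.11 on the log2 scale (standard error 0.15). Over the whole partner list the linear model without moderated variances made 0 calls.

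**Figure D5:**
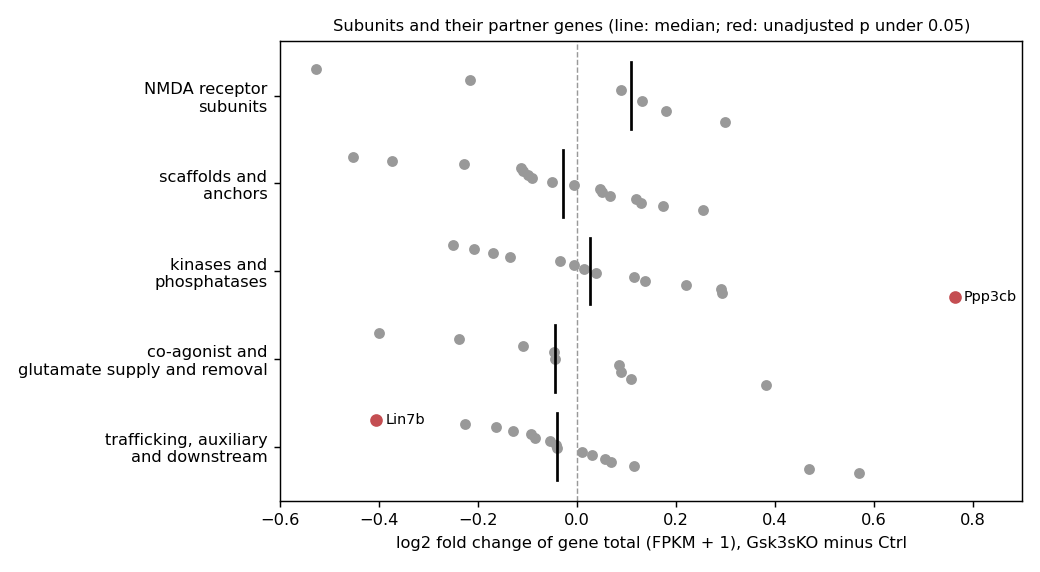
Log2 fold change of the gene totals, Gsk3sKO minus Ctrl (horizontal axis), of the 6 subunits and of the 4 groups of partner genes, 1 point per gene, with a black line at each group's median and red points for an unadjusted limma p under 0.05. Only Ppp3cb, at 0.76, and Lin7b, at -0.41, are red.

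The gene totals most like those of the abundant subunits were found by Pearson correlation of log2(FPKM + 1) over the 6 libraries among 8468 gene totals with a mean of at least 5 FPKM. For Grin1 these were Smarce1, a subunit of a chromatin remodelling complex (r = 0.998), Kcna1, a voltage-gated potassium channel (r = 0.984), and Opa1, a GTPase of mitochondrial fusion (r = 0.981). For Grin2a they were Lyrm4 (r = 0.987), Phf1 (r = 0.986) and Gm17383 (r = 0.98), and for Grin2b they were Rpl15-ps3 (r = 0.993), Mtpn (r = 0.993) and Spred1 (r = 0.992). With 6 points and so many genes such values are a description only. The points share library, depth and scaling. No other subunit was among these genes. The correlation of Grin1 with Grin2a was 0.78 and that of Grin1 with Grin2b was -0.04, also over 6 libraries.

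Markers of other cells were present beside the neuronal ones. The summed FPKM of 5 excitatory markers was 458 to 496.5 in Ctrl and 457 to 484 in Gsk3sKO, and that of 6 inhibitory markers was 990 to 1318 and 935 to 1029. The 6 astrocyte markers summed to 144.5 to 177 and 143.8 to 192.5 FPKM, the 6 oligodendrocyte markers to 118 to 183 and 128 to 165 FPKM, and the 2 oligodendrocyte precursor markers to 2.71 to 8.17 and 1.60 to 4.45 FPKM. The 5 microglial markers summed to 12.1 to 17.6 and 10.4 to 14.9 FPKM and the 5 endothelial markers to 10 to 36.4 and 16.0 to 29.4 FPKM. No marker was at 0 in all libraries, and the groups overlapped for every sum. At an unadjusted limma p under 0.05, Mog, Mag and Cnp, 3 of 6 tested oligodendrocyte markers, were lower in Gsk3sKO, as were Tbr1, 1 of 5 excitatory markers, and C1qa, 1 of 4 tested microglial markers. None of the 6 inhibitory, 6 astrocyte, 1 oligodendrocyte precursor and 4 endothelial markers tested was called, and 0 markers were higher. Over all gene totals 5.2% were called lower and 1.36% higher. By replicate, the astrocyte sum was 154.3, 177 and 144.5 FPKM in Ctrl, where Grin2c was at 1.58, 2.06 and 0.399 FPKM. In Gsk3sKO the sum was 143.8, 160.5 and 192.5 FPKM, and Grin2c was at 1.44, 1.48 and 1.66 FPKM. Within each group the libraries ranked in the same order by both. The inhibitory sum gave that order too, at 1009, 1318 and 989.6 FPKM in Ctrl and 934.6, 1000 and 1029 FPKM in Gsk3sKO. So did the oligodendrocyte precursor sum, at 3.76, 8.17 and 2.71 FPKM in Ctrl and 1.60, 3.09 and 4.45 FPKM in Gsk3sKO. The order was therefore not particular to the astrocyte markers. Over all 6 libraries the lowest astrocyte sum was that of Gsk3sKO replicate 1, and the lowest Grin2c value that of Ctrl replicate 3. The part of these cells in the subunit values was not tested.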

How the data were processed

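Ribosome-associated RNA was sequenced in 6 libraries, grouped by the submitters' labels. The authors deposited FPKM per transcript and library. The submitters' processing notes name HISAT2 2.1.0, SAMtools 1.9, StringTie 1.3.4d and GRCm38, with settings not given in the sources used here. StringTie divides reads between overlapping transcripts by estimation, so the values of transcripts of 1 gene are not independent of each other. The deposited fold, p and q columns of the authors' own comparison were not used. Coordinates, exons and sequences came from GENCODE M21, which held 114332 of the 115220 listed transcripts.

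Gene totals and transcripts with a mean of at least 1 FPKM were compared with limma 3.58.1 in R 4.3.3 (trend) on log2(FPKM + 1), without covariates, over the whole table, 2-sided, with Benjamini-Hochberg adjustment, and were called at an unadjusted p under 0.05. In simulated data with a change of 1 on the log2 scale, 85% of gene totals and 50% of transcripts were called. Smaller changes, such as those of the subunit gene totals, were not simulated. Exact permutation tests cannot give a p below 0.1 here. Alternatives were a pseudocount of 0.1, no filter, a filter of 5 FPKM, each library left out, a replicate block, median ratio scaling, unmoderated variances and protein-coding transcripts only. Named were the 6 members, their tested transcripts, partners called or most abundant in their group, and the 3 genes most like each of Grin1, Grin2a and Grin2b. Members and lists were chosen with earlier results of these data known. Python 3.11.15 and matplotlib 3.10.9 made the tables and figures.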

Additional observations from a re-analysis of the deposited data

How the results depend on the processing

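Of the 6 subunit gene totals, 0 were called under every alternative that kept all libraries, and between 0 and 1 with 1 library left out, namely Grin3a without Gsk3sKO replicate 1 and Grin1 without Gsk3sKO replicate 3. The count of subunit transcripts called was 0 in the main comparison, 1 without a filter (Grin2b ENSMUST00000125905), 1 with unmoderated variances (Grin2a ENSMUST00000197242), and 0 to 4 with 1 library left out, where the 4 without Gsk3sKO replicate 3 were 2 higher and 2 lower.

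With 1 library left out, the log2 fold change ran from 0.15 to 0.41 for Grin1, 0.09 to 0.19 for Grin2a, 0.01 to 0.19 for Grin2b, -0.15 to 0.41 for Grin2c, -0.45 to -0.01 for Grin2d and -0.85 to -0.33 for Grin3a, and the log2 ratio of Grin2a to Grin2b from -0.080 to 0.11. For single transcripts, the sign also changed for Grin2b ENSMUST00000143943 (0.19 without Ctrl replicate 1, 0.16 without Gsk3sKO replicate 2, in a range from -0.38), Grin2c ENSMUST00000106554 (-0.15 without Ctrl replicate 3) and Grin3a ENSMUST00000076674 (0.14 without Ctrl replicate 2, 0.48 without Gsk3sKO replicate 3, in a range from -1.18). The cause was not tested.

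The partner count of 2 was 1 with the replicate block, 1 with median ratio scaling, 0 with unmoderated variances, and 1 to 4 with 1 library left out. The labels do not say whether a number shared by a Ctrl and a Gsk3sKO library marks a pair. Deviations from the group means correlated at -0.03, -0.01 and -0.08 for shared numbers and at -0.03 to 0.05 for other numbers. Such values over all genes cannot show whether a pairing acts on a part of the genes. The replicate block called 0 subunit gene totals and 0 subunit transcripts, and of the partners it lost Lin7b, whose unadjusted limma p was then 0.0744. Grin2c and Grin2d had the fewest fragments behind a value, roughly 46 to 360, and the part of depth in their spread was not tested. Over all features, the count of calls was 844 gene totals and 1200 transcripts in the main comparison, 1121 and 1917 without a filter, and 564 and 590 with a filter of 5 FPKM, which tested other numbers of features and left out Grin2c and Grin2d. With median ratio scaling, the median log2 fold change over all gene totals was -0.01 in place of -0.06.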
